A study of Homo sapiens with 24 samples.

Results

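The MHC class II genes followed here were CIITA, CD74, HLA-DRA, HLA-DRB1, HLA-DQA1, HLA-DPA1, HLA-DPB1, HLA-DMA, HLA-DMB and HLA-DOB. A called region was assigned to a gene when it lay within 10 kb of any of its GENCODE transcription start sites (TSSs) on hg19 or overlapped its gene body. By this rule 8 of the 26369 distinct regions in the 8 deposited lists lay at these 10 of 20163 protein-coding genes. The 8 regions took up 15 entries in the lists, since a region can be called at more than 1 time and in both lines.

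ATAC-seq libraries, which read out chromatin accessibility, came from 2 diffuse large B-cell lymphoma (DLBCL) lines, OCI-LY3 and VAL, treated with 30 nM of AZD4573, an inhibitor of the transcription elongation kinase CDK9. Each line had 3 groups of 4 libraries, at 0 h, 3 h and 8 h of treatment. In every group 2 libraries were made by a standard protocol from 50000 cells and 2 by Fast-ATAC, for which the labels give 5000 cells. The lists hold the regions called increased or decreased at 3 h or 8 h against 0 h of the same line, so that there were 4 comparisons with 2 directions each. The submitters describe VAL as ABC-DLBCL and OCI-LY3 as GC-DLBCL, whereas OCI-LY3 is commonly used as a model of the ABC type and VAL of the germinal centre type. Each subtype was represented by a single cell line, and the identity of the lines could not be checked against markers because the lists hold no levels.

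MHC class II molecules are heterodimers of an alpha and a beta chain that display peptides from endosomes to CD4+ T cells, and B cells express them constitutively. The classical chains are encoded by the HLA-DR, -DQ and -DP genes, CD74 encodes the invariant chain that occupies the groove during assembly, HLA-DM exchanges its remnant for peptide, and HLA-DO restrains HLA-DM in B cells. Their promoters share an X1, X2 and Y box module bound by RFX, CREB-family proteins and NF-Y, which together recruit CIITA, a coactivator that does not bind DNA by itself. Loss of class II expression is a known feature of a fraction of DLBCL.

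The data are calls. The lists carry positions only, with no read counts, fold changes or values per library, so that no replicate error, depth or test could be given for any gene and the standard and Fast-ATAC libraries cannot be told apart. A gene with no listed region was therefore not called, which does not show that its accessibility did not change. Within a line, both time points were set against the same 0 h libraries. The study's methods describe only Fast-ATAC and do not say which libraries entered the calls. The authors kept only uniquely mapped reads, which matters for the polymorphic and duplicated HLA genes. The part of this filter in the absence of calls was not tested, and the lists held 0 regions outside chromosomes 1 to 22, X and Y.

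Of the 8 regions, 6 were called increased, 2 decreased and 0 in both directions. They lay at 7 of the 10 genes. Over the 4 comparisons together an increased region was found at 6 genes, where 43.8% of all protein-coding genes had one, and a decreased region at 2, where 20.9% had one. CIITA alone of the 10 had both. HLA-DRB1, HLA-DQA1 and HLA-DOB had none. By line, 2 of the 8 regions were called in both, 4 in VAL only and 2 in OCI-LY3 only. Of all 26369 regions 15.5% were called in both lines, 65.0% in VAL only and 19.5% in OCI-LY3 only, so that the division of the 8 regions cannot be set apart from that of the lists as a whole.

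**Figure D1:**
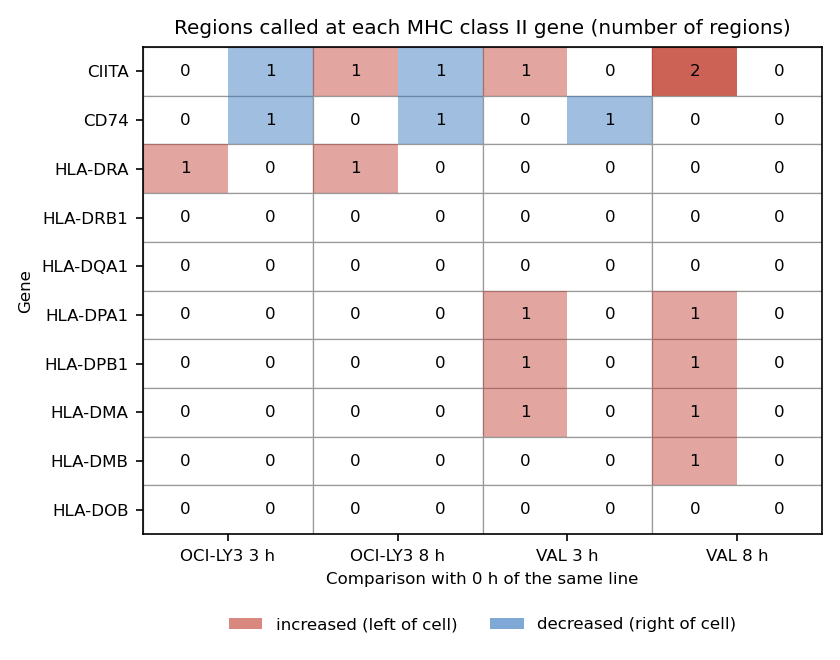
Number of called regions at each class II gene (rows) in the 4 comparisons with 0 h (columns), increased on the left of each cell in red and decreased on the right in blue, where the darker red marks 2 regions. The HLA-DRA calls are in OCI-LY3, the HLA-DP and HLA-DM calls are in VAL, and 3 genes have a 0 in every cell.

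Promoter sequences of 4 genes are given first. They are reference bases (hg19) upstream of the TSS on the strand of the gene, not the alleles of these lines, and were chosen because 3 of these starts were covered by a called region while that of HLA-DRB1, shown for comparison, was not. Capitals mark the X1 core (AGCAACNG) and the Y box core (CTGATTGG) in HLA-DPA1, HLA-DMA and HLA-DRB1, and the IRF core (GAAANNGAA) and CCAAT in HLA-DMB. For HLA-DPA1 the start shown is the most upstream of those that the called region covered.

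HLA-DPA1, chr6:33041427-33041576, minus strand: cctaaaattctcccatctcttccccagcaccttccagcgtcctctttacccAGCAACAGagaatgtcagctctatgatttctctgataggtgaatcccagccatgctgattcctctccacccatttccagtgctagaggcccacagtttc
HLA-DMA, chr6:32920875-32921024, minus strand: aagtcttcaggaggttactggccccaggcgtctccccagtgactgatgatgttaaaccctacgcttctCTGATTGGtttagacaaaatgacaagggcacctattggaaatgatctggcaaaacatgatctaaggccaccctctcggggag
HLA-DMB, chr6:32908806-32908965, minus strand: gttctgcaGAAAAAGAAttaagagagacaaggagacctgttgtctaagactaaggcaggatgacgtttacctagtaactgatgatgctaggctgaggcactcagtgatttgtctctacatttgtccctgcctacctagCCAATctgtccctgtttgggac
HLA-DRB1, chr6:32557626-32557775, minus strand: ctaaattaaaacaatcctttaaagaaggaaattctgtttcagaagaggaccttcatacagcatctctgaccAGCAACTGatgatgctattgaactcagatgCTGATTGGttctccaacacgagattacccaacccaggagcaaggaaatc

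CIITA, the coactivator on which class II transcription depends, had 3 regions. The region at chr16:11005863-11007076 (1214 bp) was increased in OCI-LY3 after 8 h and in VAL after 3 h and 8 h, and not called in OCI-LY3 after 3 h. It lay in intron 13 of the 20-exon canonical transcript, with its midpoint 35410 bp downstream of the canonical TSS and its edge 2427 bp from the nearest annotated start of an internal transcript. It is the only increased class II gene region that both lines shared. The central bases of this region are shown on the gene's strand and hold no match to any motif searched, so that nothing is in capitals.

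CIITA intron 13, chr16:11006370-11006569, plus strand: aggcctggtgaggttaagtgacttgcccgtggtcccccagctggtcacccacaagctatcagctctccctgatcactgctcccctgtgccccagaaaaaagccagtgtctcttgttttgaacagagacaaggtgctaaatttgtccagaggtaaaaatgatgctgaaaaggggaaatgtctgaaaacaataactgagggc

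A CIITA region of 1298 bp at chr16:11023860-11025157 was decreased in OCI-LY3 after 3 h and 8 h and in neither VAL list. It lay inside exon 20, the last exon of the canonical transcript, at 1839 bp from the nearest start of a shorter transcript. In OCI-LY3 after 8 h the gene thus carried an increased region in intron 13 and a decreased region in its last exon. The CIITA region called only in VAL after 8 h, chr16:11038033-11039067 (1035 bp), lay beyond the end of the gene and 3457 bp from a CIITA start, but covered a TSS of the neighbouring gene CLEC16A. None of the 16 annotated CIITA starts, including the canonical start at position 10971059, was covered by a called region, and none had a region within 1 kb. Chromosome 16 had an unequal background, since 40.8% of its protein-coding genes had an increased region in OCI-LY3 after 8 h, 41.8% in VAL after 3 h and 66.9% in VAL after 8 h. A decreased region was found at only 1.97% and 2.56% of chromosome 16 genes in OCI-LY3 after 3 h and 8 h.

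CD74, which encodes the invariant chain, had only decreased regions. A 516 bp region at chr5:149780761-149781276 was decreased in OCI-LY3 after 3 h and 8 h and in VAL after 3 h. It spanned the 3' end of the gene, overlapping exon 9 of 9 and the flank behind it, 11033 bp from the nearest CD74 TSS, and so entered through the gene body and not through its distance to a start. In VAL after 8 h this region was not listed. A broader region 643 bp further downstream, chr5:149777633-149780117 (2485 bp), was decreased in VAL after 3 h and 8 h and in neither OCI-LY3 list. That region lay 12192 bp from the nearest CD74 start and 1082 bp behind the gene, just outside the rule. Its nearest TSS was that of TCOF1, at 8123 bp. No increased region lay nearer to a CD74 start than 35729 bp in VAL and 104680 bp in OCI-LY3. Among chromosome 5 genes 8.71%, 15.3% and 9.16% had a decreased region in OCI-LY3 after 3 h and 8 h and in VAL after 3 h. The stretch of the shorter region behind the gene is shown because it holds the IRF core match of that region, in capitals, which reads GAAANNGAA on the opposite strand. The match lay within the central 200 bp of the region, where 7.13% of all listed regions and 10.3% of the decreased ones held an IRF core.

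CD74 3' flank, chr5:149780861-149781060, minus strand: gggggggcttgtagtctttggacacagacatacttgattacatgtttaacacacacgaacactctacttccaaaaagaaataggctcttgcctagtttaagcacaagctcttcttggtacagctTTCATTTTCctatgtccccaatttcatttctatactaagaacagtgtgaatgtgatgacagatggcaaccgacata

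**Figure D2:**
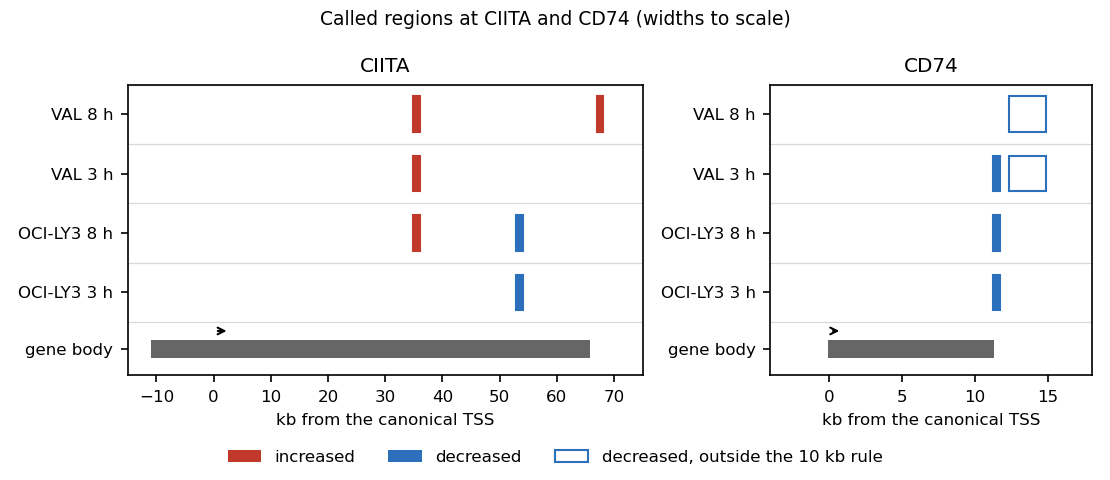
Called regions at CIITA and CD74 in the 4 comparisons, by distance in kb from the canonical TSS in gene direction, with widths to scale and the gene body in grey below, the arrow marking the start. The red CIITA region in intron 13 recurs in 3 comparisons, the blue CIITA region is present in OCI-LY3 only, and the open CD74 boxes lie outside the rule, 643 bp beyond the filled ones.

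HLA-DRA encodes the nearly invariant alpha chain of HLA-DR, the most abundant class II molecule of B cells. Its promoter region, chr6:32407005-32408239 (1235 bp), was increased in OCI-LY3 after 3 h and 8 h and in neither VAL list. The region was centred 42 bp upstream of the canonical TSS, at -42 bp, and covered exon 1 of 5 and part of intron 1. It was the only class II gene promoter called in OCI-LY3. In VAL the nearest increased region lay 249060 bp from an HLA-DRA start at 3 h and 215418 bp at 8 h.

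HLA-DRB1 encodes the highly polymorphic beta chain that pairs with the HLA-DRA product. It had no region in any list, and its nearest increased region lay 19748 bp from a start, in OCI-LY3 after 8 h. Its reference promoter holds the X1 core at -79 to -72 and the Y box core at -49 to -42, so that a promoter with these letters was not always called. HLA-DQA1, the alpha chain of HLA-DQ, was likewise without a region. The increased region between HLA-DRB1 and HLA-DQA1, chr6:32577373-32578337, was called in OCI-LY3 after 8 h and lay 17619 bp from the nearest HLA-DQA1 start, outside the rule for both genes. In VAL the nearest increased region to HLA-DQA1 lay at 159349 bp at 3 h and 47969 bp at 8 h.

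HLA-DPA1 and HLA-DPB1, the alpha and beta chains of HLA-DP, lie head to head and shared 1 region. This region, chr6:33040655-33041697 (1043 bp), was increased in VAL after 3 h and 8 h and in neither OCI-LY3 list. It covered 3 annotated HLA-DPA1 starts, at positions 33041392, 33041410 and 33041426, and lay 2070 bp from the HLA-DPB1 start at 33043767, which it did not cover. The start that GENCODE marks as canonical for HLA-DPA1, at 33048487, lies further upstream. Relative to that transcript the region overlapped exon 2 with parts of introns 1 and 2. The X1 core stood at -99 to -92 from the start at 33041426, with an IRF core at -192 to -184. Both matches lay outside the central 200 bp of the region. Over their whole length, 13.7% of all listed regions held an X1 core and 36.1% an IRF core. In OCI-LY3 the nearest increased region was 173766 bp from an HLA-DPA1 start at 3 h and 123721 bp at 8 h.

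The HLA-DM genes, whose product loads peptide, were both called at their promoters in VAL and at different times. The HLA-DMA promoter region, chr6:32920359-32921622 (1264 bp), was increased in VAL after 3 h and was not listed at 8 h. The HLA-DMB promoter region, chr6:32908266-32909828 (1563 bp), was increased in VAL after 8 h and was not listed at 3 h. Each covered the canonical start, exon 1 and part of intron 1, with midpoints at -116 bp and -242 bp. The HLA-DMB region also lay 7620 bp from an HLA-DMA start, through which HLA-DMA counted as called at 8 h. The HLA-DMA region was equally near to the start of the read-through gene ENSG00000248993. HLA-DMA held a Y box core at -82 to -75, in which the CCAAT at -79 to -75 is the same bases on the other strand. The match lay within the central 200 bp of the region, where 1.30% of all listed regions held a Y box core. HLA-DMB held no exact X1 or Y box core in its promoter window but a CCAAT at -22 to -18 and an IRF core at -152 to -144. That IRF core lay within the central 200 bp of the region, where 7.13% of all listed regions held one. In OCI-LY3 the nearest increased region lay 54189 bp from an HLA-DMA start and 41404 bp from an HLA-DMB start at both times.

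HLA-DOB, the beta chain of the HLA-DM inhibitor HLA-DO, had no region. Increased regions lay 18588 bp from its nearest start in VAL after 3 h, 17440 bp in VAL after 8 h and 32425 bp in OCI-LY3 at both times, the closest at 8 h covering a TSS of TAP2.

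**Figure D3:**
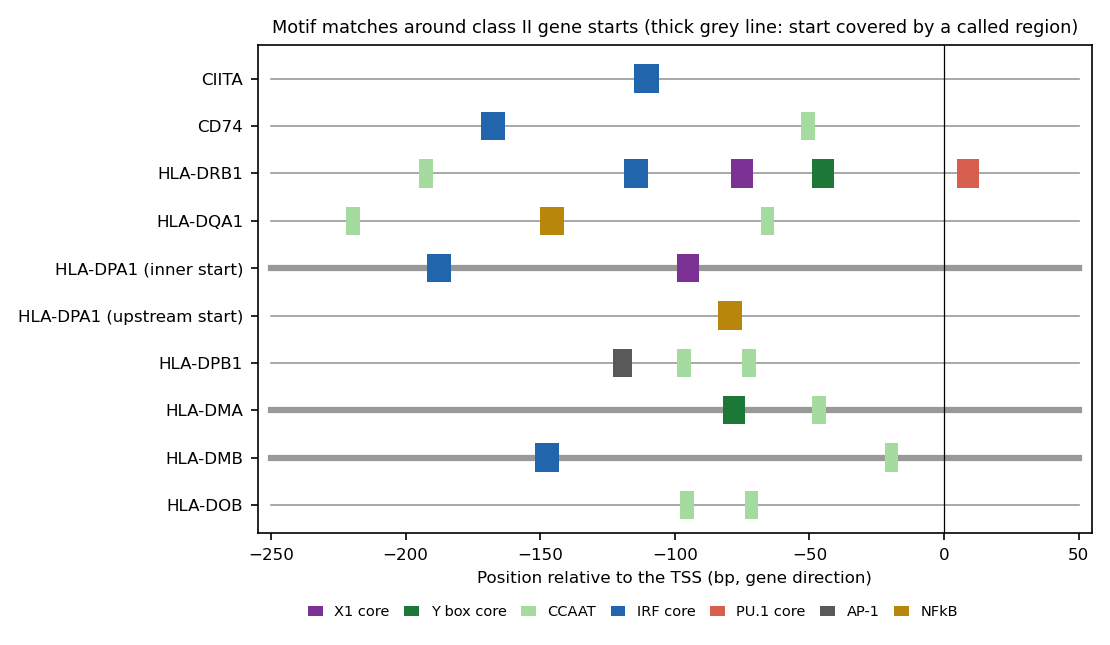
Matches to 7 motifs from 250 bp upstream to 50 bp downstream of class II gene starts, by position in bp in gene direction, for the canonical start of the 9 class II genes other than HLA-DRA and, for HLA-DPA1, also the inner start at the called region. Thick grey lines mark starts covered by a called region, and a Y box match hides the CCAAT inside it. HLA-DRB1, whose start is not covered, has an X1 core and a Y box core together.

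Across all starts of the 9 genes other than HLA-DRA, the window from 250 bp upstream to 50 bp downstream held the X1 core at 2 genes (HLA-DRB1 and HLA-DPA1) and the Y box core at 2 (HLA-DRB1 and HLA-DMA). Among 146306 such windows at all protein-coding starts, 4.01% held the X1 core and 3.22% the Y box core. Both strands were searched. CCAAT, which occurs inside the Y box core, was found at 8 genes and in 33.2% of all windows, so that it is common everywhere. The IRF core was found at 5 genes and in 8.16% of all windows, the AP-1 motif TGANTCA at 5 and in 6.31%, the PU.1 core GAGGAAGT at 3 and in 2.27%, and the NFkB motif GGGANTNCC at 3 and in 4.18%. The full cyclic AMP response element TGACGTCA, in 1.71% of all windows, and the CTCF motif, in 2.10% with 1 mismatch allowed, were found at 0 of the 9 genes, as was the X2 core TGCGTCA, in 2.28% of all windows. Genes with many starts had more windows, and nearby starts shared bases. The gene counts take a match at any start, whereas the shares are over single windows. The counts and shares are therefore not like for like, and a share per gene over all genes was not computed. Letters that are absent say nothing about binding of the factor.

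The class II counts were read against all protein-coding genes. With 10 genes a single gene moves a share by 10 percentage points, and the 8 HLA genes lie on chromosome 6 within 670 kb, so that they are not independent of each other. In OCI-LY3 after 3 h 1 gene had an increased region (HLA-DRA), against a background of 11.2% of all protein-coding genes, and 2 had a decreased region (CIITA and CD74), against 5.97%. In OCI-LY3 after 8 h 2 genes had an increased region (CIITA and HLA-DRA), against 19.7%, and the 2 genes with a decreased region stood against 8.81%. Increased calls in OCI-LY3 were thus near the background.

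In VAL after 3 h 4 genes had an increased region, CIITA, HLA-DPA1, HLA-DPB1 and HLA-DMA, against a background of 17.7%. These 4 genes rested on 3 regions, since the HLA-DP genes shared theirs. CD74 had the decreased region, against 5.12%. In VAL after 8 h the same 4 genes and HLA-DMB made 5 with an increased region, against 37.6%, and 0 had a decreased region, against 14.6%. With each region assigned only to its nearest TSS, 3 genes were counted in VAL after 8 h, against 32.8% of all genes, so that this count is near its background. The number of listed regions was itself higher in VAL after 8 h, with 11121 increased and 9260 decreased, than in OCI-LY3 after 3 h, with 1852 and 1677.

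**Figure D4:**
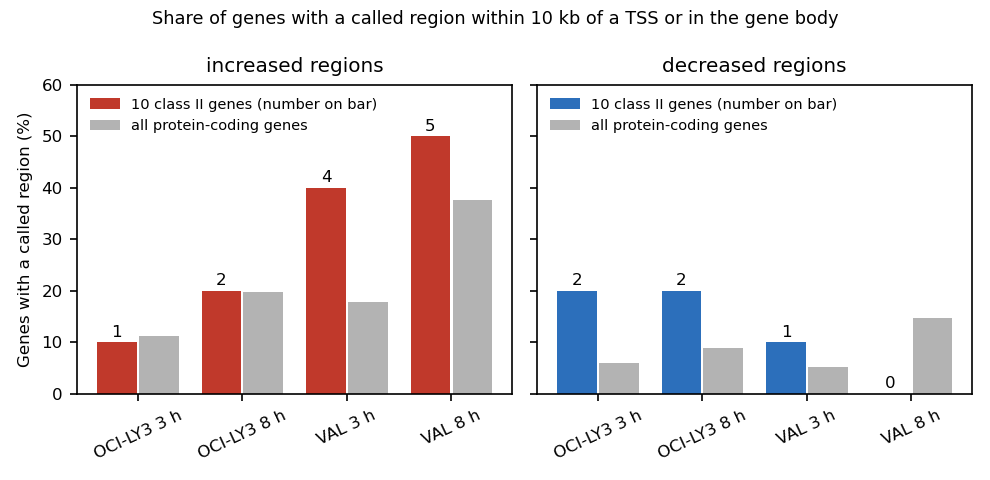
Percent of the 10 class II genes (coloured bars, with the number of genes on top) and of all 20163 protein-coding genes (grey bars) with an increased (left) or decreased (right) region in each comparison. For increased regions the class II bar is within a gene of the grey bar in OCI-LY3 and above it in VAL, with 4 genes against 17.7% at 3 h. At 8 h the 5 genes against 37.6% include HLA-DMA, counted through the HLA-DMB promoter region, and fall to 2 against 26.8% within 1 kb of a TSS.

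When only regions within 1 kb of a TSS were counted, HLA-DRA was the 1 gene with an increased region in OCI-LY3 after 3 h and at 8 h, against 6.42% and 10.5% of all genes. In VAL 2 genes were counted at 3 h (HLA-DPA1 and HLA-DMA), against 11.2%, and 2 at 8 h (HLA-DPA1 and HLA-DMB), against 26.8%. The decreased count was 0 in all 4 comparisons, where 1.19% and 1.94% of all genes had such a region in OCI-LY3 after 3 h and 8 h, and 0.650% and 4.59% in VAL. With so low a background, 0 of 10 says little about decreased class II promoters. Both decreased regions overlapped the last canonical exons of CIITA and CD74.

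By distance, the median gap from a class II gene start to the nearest increased region was 124 kb in OCI-LY3 after 3 h, 36.9 kb in OCI-LY3 after 8 h, 15.1 kb in VAL after 3 h and 12.5 kb in VAL after 8 h. Over all protein-coding genes the medians were 425 kb, 153 kb, 275 kb and 54.5 kb. To the nearest decreased region the class II medians were 322 kb, 2520 kb, 2590 kb and 2590 kb in the same order, against 654 kb, 465 kb, 1200 kb and 523 kb over all genes. The class II median was thus larger than that of all genes except in OCI-LY3 after 3 h. CIITA at 1839 bp in both OCI-LY3 lists, and CD74 at 11033 bp to 12192 bp in all 4, were far nearer to a decreased region than these medians. The 8 HLA genes are neighbours and mostly shared their nearest decreased region. Some also shared their nearest increased region, as HLA-DMA and HLA-DMB did in OCI-LY3 and HLA-DRB1 and HLA-DQA1 in OCI-LY3 after 8 h. The class II medians thus do not rest on separate distances.

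The interval from 10 kb before HLA-DRA to 10 kb behind HLA-DPB1, chr6:32397655-33067473, is 670 kb long and holds 20 protein-coding genes. It held 13 listed regions, 4 at the class II genes above and 9 elsewhere. Increased regions of the interval numbered 3 (3 h) and 6 (8 h) for OCI-LY3 and 5 (3 h) and 9 (8 h) for VAL, and 0 were decreased in any comparison. On the whole of chromosome 6 decreased regions outnumbered increased ones in each comparison, with 116 against 109, 305 against 241, 167 against 148 and 798 against 414. Counted by gene under the 10 kb rule, the order was reversed, with more chromosome 6 genes at an increased region than at a decreased one. The shares were 13.2% against 7.25% and 21.4% against 13.5% in OCI-LY3 after 3 h and 8 h. In VAL they were 18.3% against 7.54% and 30.8% against 24.6%.

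The regions of the interval that recurred most were not at class II genes. Those called increased in all 4 comparisons were the shared promoter of PSMB9, an immunoproteasome subunit, and TAP1, a peptide transporter subunit, at chr6:32820668-32822758, and a region at chr6:32861720-32863259, 37846 bp from the PSMB9 start. A region 17017 bp from the HLA-DQB1 start, chr6:32653177-32654128, was increased at 8 h in both lines, and another at 21288 bp, chr6:32657448-32658190, in OCI-LY3 after 8 h. The region at chr6:32764557-32766099, on the 3' side of HLA-DOB, was increased in VAL at both times.

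**Figure D5:**
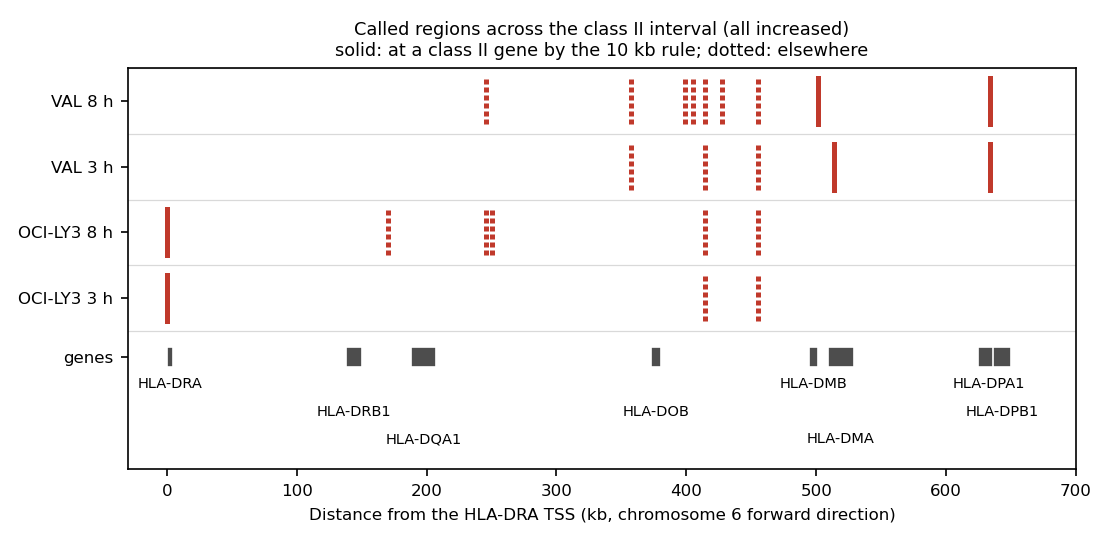
Called regions across the class II interval by distance in kb from the HLA-DRA TSS, 1 line of marks for each comparison, with the class II genes as grey boxes below and mark widths not to scale. Solid marks are at class II genes by the 10 kb rule and dotted marks elsewhere; all are increased, and the dotted marks at 414 kb and 455 kb recur in all 4 comparisons.

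Other genes of the pathway were described from lists by the same rule, and counts over any of the 4 comparisons stand against 43.8% of all protein-coding genes for increased and 20.9% for decreased regions. Of the other class II genes, HLA-DRB5, HLA-DQB1, HLA-DQA2, HLA-DQB2 and HLA-DOA, 0 of 5 had a region in any list. Of the 7 genes for factors of the promoter module, 2 had an increased region, against 43.8% of all genes, and 0 a decreased region, against 20.9%. These were RFXANK, a subunit of RFX, with 2 regions in each line at 8 h, and NFYC, a subunit of NF-Y, with 1 in VAL after 8 h. RFX5, RFXAP, NFYA, NFYB and CREB1 had none.

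Of 6 B-cell regulators of CIITA, 3 had an increased region, against 43.8% of all genes, and 3 a decreased region, against 20.9%, PAX5 having both. SPI1, which encodes PU.1, had 1 increased region in all 4 comparisons, and TCF3, which encodes the E2A proteins, had 2 to 5. BCL6, the germinal centre repressor, had 1 decreased region in all 4 comparisons. PRDM1, which encodes the CIITA repressor BLIMP-1, had 1 decreased region in each line at 8 h. PAX5, the B-cell identity factor, had 5 decreased regions in OCI-LY3 after 3 h and 2 decreased and 1 increased at 8 h, with none in VAL. IRF4 had none.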

How the data were processed

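ATAC-seq reads were aligned to hg19 with Bowtie2 by the authors, who removed mitochondrial, multiply mapped and duplicate reads, called peaks per sample with MACS2, merged them and counted reads with bedtools, and called differential regions with DESeq2. Versions for the ATAC-seq processing are not given in the sources used here. The 8 deposited lists hold chromosome, start and end only, with 0 columns of per-sample values. Increased and decreased are the authors' calls against 0 h, and the lists name the control DMSO. The direction and comparison were read from the name of each list alone. The adjusted p threshold of a call is stated differently in different places of the study and is not given here.

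Starts were converted to 1-based positions. TSSs, exons and sequences were read from GENCODE 44 lifted to hg19 and from the matching genome (Python 3.11.15, numpy 2.4.6, matplotlib 3.10.9). Equal coordinates identified the same region across lists. Background shares counted all protein-coding genes under the same rule. Motifs were searched on both strands, in the central 200 bp of regions, in whole regions and in windows from 250 bp upstream to 50 bp downstream of each TSS. The CTCF motif allowed 1 mismatch over 12 bases. Assignment and motif search were tested on simulated data, recovering 200 of 200 planted regions inside the rule, 200 of 200 outside and 1000 of 1000 planted motifs. No statistical test was run. All 10 genes are named, with every region, and listed genes by list membership. The genes and lists were chosen with earlier results of these data known. MARCHF1 and MARCHF8 were looked up by their GENCODE gene names. The promoter sequence of HLA-DRA and its motifs are not reported here.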

Additional observations from a re-analysis of the deposited data

How the results depend on the processing

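Of 99 values recomputed under alternatives, 80 stayed within 1.5 times the main value and 19 moved, of which 2 are motif counts over whole regions that are not reported here. Basic transcripts only and a 5 kb window moved none of the counts past that ratio. Counting only regions within 1 kb of a TSS gave 1 gene and 1 region increased in OCI-LY3 after 8 h in place of 2, 2 genes in VAL after 3 h in place of 4 (11.2% of all genes), 2 genes and 2 regions in VAL after 8 h in place of 5 and 4 (26.8%), and 0 decreased genes and 0 decreased regions in OCI-LY3 after 3 h and 8 h and in VAL after 3 h. A 25 kb window gave 4 increased genes in OCI-LY3 after 8 h (25.5% of all genes under that rule), 7 increased regions in VAL after 8 h, 2 decreased regions in VAL after 3 h, and 1 gene and 1 region decreased in VAL after 8 h in place of 0 (17.8% of all genes), the last being the region behind CD74. Assigning each region only to its nearest TSS gave 3 increased genes in VAL after 8 h (32.8% of all genes). These follow from how each rule is built. No paired analysis was possible because the lists hold no values per library, and for the same reason leaving out a library, or a stricter threshold, was not run. Depth is unknown.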

Other observations

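Of 7 endosomal processing genes, 3 had an increased region in any of the 4 comparisons, against 43.8% of all protein-coding genes, and 2 a decreased region, against 20.9%. IFI30, the lysosomal thiol reductase, had an increased region in all 4 comparisons, CTSS, the protease that trims the invariant chain, in OCI-LY3 at both times, and CTSD in VAL after 8 h. CTSB had a decreased region in OCI-LY3 at both times and in VAL after 8 h, and LGMN in OCI-LY3 after 8 h. Of 3 surface turnover genes 0 had an increased region and 2 a decreased one, against the same shares. MARCHF1, which encodes a ubiquitin ligase that removes class II molecules from the surface, had 22 distinct regions, all decreased, of which VAL had 3 (3 h) and 20 (8 h) and OCI-LY3 had 1 (3 h) and 6 (8 h). The gene is 860 kb long, and the part of its length in this count was not tested. MARCHF8 had 3 decreased regions, and CD83 had none.

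Of 8 genes of class I presentation 7 had an increased region in any comparison, against 43.8% of all genes, that is 0 (3 h) and 5 (8 h) of them for OCI-LY3 and 2 (3 h) and 6 (8 h) for VAL. The shares of all genes were 11.2% and 19.7% for OCI-LY3 and 17.7% and 37.6% for VAL. Among the 7 was NLRC5, the class I counterpart of CIITA, with 2 regions in OCI-LY3 after 8 h and in VAL at both times. B2M alone also had a decreased region, in OCI-LY3 after 3 h and in VAL after 8 h. All 6 peptide supply genes (TAP1, TAP2, TAPBP, PSMB8, PSMB9 and PSMB10) had an increased region in VAL after 8 h, where 37.6% of all genes had one, and 0 had a decreased one, where 14.6% had one, with 4 increased in OCI-LY3 at each time and 5 in VAL after 3 h. TAP1, TAP2, PSMB8 and PSMB9 are 4 of these genes and rested on 3 shared regions. The difference between these lists and the class II genes was not tested.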
